A study of Homo sapiens with 22 samples.

Results

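The MYC and PVT1 locus was taken as the 3.5 Mb of human chromosome 8 that end at position 130000000 (hg38), and its members were the peaks with a summit in that stretch. They numbered 538 of 341123 peaks in 12 lists, and overlapping peaks of different lists merged into 124 sites. MYC, which codes for a transcription factor that drives growth and is a common oncogene, lies at 127735434 to 127742951. PVT1, a long non-coding RNA gene that neighbours MYC and is often co-amplified with it, lies at 127794524 to 128101256 (306733 bp). The rest of the stretch holds few protein-coding genes: LRATD2 and POU5F1B before MYC, and GSDMC and CYRIB far beyond PVT1.

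MYC is known for taking its input from enhancers that lie far away in the surrounding gene desert, at positions that differ between tissues. Cohesin, a ring that contains RAD21 and either STAG1 or STAG2, is loaded and driven along DNA with the help of NIPBL and extrudes loops until it meets CTCF bound to DNA. PDS5A binds cohesin and helps to halt it at CTCF, and WAPL releases cohesin from DNA.

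The libraries were chromatin immunoprecipitations from hTERT RPE-1, a telomerase-immortalised retinal pigment epithelial line, with 22 samples of which 10 were inputs, not analysed here on their own. CTCF and WAPL came from wild-type cells with no treatment named. All other proteins came from 2 clones in which NIPBL carries FKBP12(F36V), a degron that dTAGV-1 engages: clone NIPBL-A2 (mCherry-P2A-FKBP12(F36V)-NIPBL) and clone NIPBL-D7 (mGreenLantern-P2A-FKBP12(F36V)-NIPBL). Both clones have 3 RAD21 libraries, for DMSO (24 h), dTAGV-1 (4 h) and dTAGV-1 (24 h), from asynchronous cells mixed with about 10% NIH/3T3 mouse cells as a spike-in. PDS5A came from clone D7 after 24 h in DMSO with the same spike-in, while STAG1 and STAG2 (clone D7) and HA (clone A2) have no treatment and no spike-in in the labels. The HA peak names refer to HA-NIPBL, although the genotype in the labels names no HA tag, and HA chromatin alone was fixed with DSG before formaldehyde. Each clone stands for 1 isolate and each combination of protein, clone and time held 1 library. The clones were described side by side and not pooled as replicates, and no test between groups was run. The intervals below are 95% Wilson intervals (Newcombe intervals for differences) and cover counting error alone. NIPBL itself has no library after dTAGV-1, so its depletion could not be checked here.

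The full lists held between 230 (HA) and 59138 (CTCF) peaks. Depth was read from the lowest local background pileup, the number of overlapping reads expected by the peak caller where there is no signal. It was 13.4 for CTCF and between 1.77 and 4.05 for the RAD21, STAG, PDS5A and WAPL lists, and it could not be recovered for HA. In the order DMSO, 4 h and 24 h, the RAD21 lists of clone A2 stood at 1.87, 3.16 and 2.83, and those of clone D7 at 3, 4.05 and 3.07. The DMSO library thus had the lowest background pileup of its clone in both clones. Fold enrichments below are the authors' values for a peak summit and serve to describe and rank peaks within a list. A higher or lower fold in another list is not read as a change in binding.

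CTCF had 77 peaks at the locus (0.13% of its list). RAD21 had 70 (0.176%), 40 (0.155%) and 52 (0.182%) in clone A2 after DMSO, 4 h and 24 h of dTAGV-1, and 68 (0.181%), 56 (0.143%) and 50 (0.166%) in clone D7. The DMSO list was therefore the longest of its clone at the locus in both clones. STAG1 had 43 peaks (0.16%), STAG2 had 42 (0.187%), PDS5A had 34 (0.118%) and WAPL had 3 (0.112%). HA had 3 of its 230 peaks here, 1.3% with an interval of 0.445 to 3.76%. That is a larger share than in any other list, though it rests on 3 peaks.

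**Figure D1:**
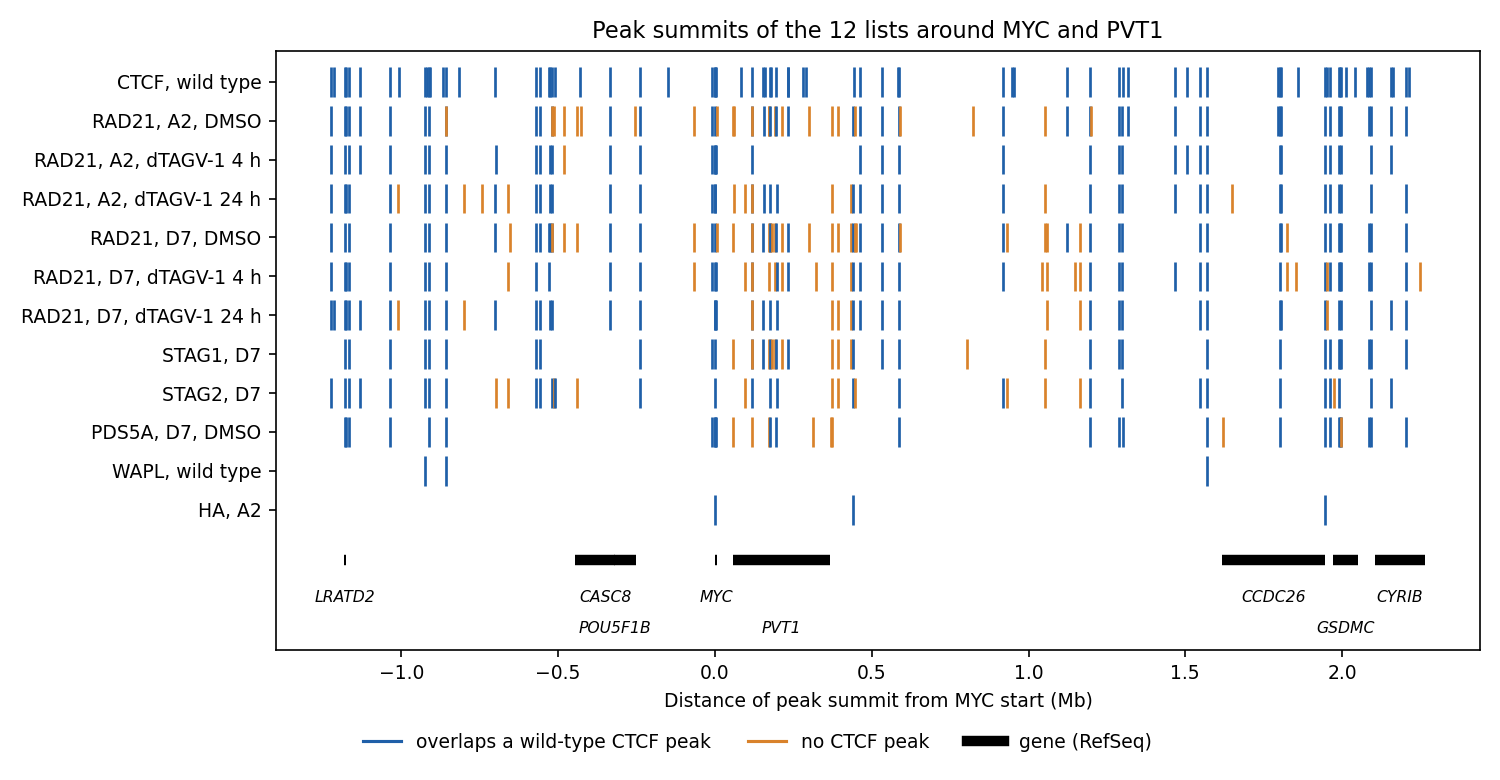
Each tick is a peak summit, placed by its distance from the start of MYC in Mb (x axis) and by list (y axis). Blue ticks overlap a wild-type CTCF peak, orange ticks do not, and black bars are genes. RAD21 ticks inside PVT1 are mostly orange in both DMSO lists, 7 of 12 in clone A2 and 8 of 13 in clone D7, and 1 is left in clone A2 at 4 h.

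Of the 124 sites, 74 held CTCF and 93 held RAD21 in at least 1 of its 6 lists, 50 with CTCF and 43 without. Sites with RAD21 in every list numbered 25, and CTCF was present at each of those 25. Such a site needs a peak in the clone A2 4 h list, of which 97.9% overlapped CTCF over the whole list and 97.5% at the locus. The presence of CTCF at these sites is therefore not particular to the locus. A further 24 sites held CTCF and no RAD21 in any list. Counted as peaks, 24 of 77 CTCF peaks (31.2%) overlapped no RAD21 peak, against 32.1% of the whole CTCF list. These CTCF peaks without RAD21 had low folds, with a median of 5.44 and a maximum of 20.1. Seen from the DMSO lists, 48 of the 77 CTCF peaks (62.3%) overlapped RAD21 in clone A2 and 46 (59.7%) in clone D7, against 57.4% and 52.8% of the CTCF list. The 27 CTCF peaks that overlapped RAD21 in all 6 lists had a median of 49.6, and the 26 that overlapped RAD21 in some lists had a median of 14.7.

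RAD21 peaks of the DMSO lists lay on CTCF less often at this locus than elsewhere. In clone A2, 46 of 70 (65.7%, 54 to 75.8%) overlapped a CTCF peak, against 85.9% of the whole list, and the difference from the rest of the list was -20.2 percentage points (-31.9 to -10.2). In clone D7, 43 of 68 (63.2%, 51.4 to 73.7%) did so, against 83.1%, a difference of -19.9 points (-31.8 to -9.41). The difference therefore lay outside counting error in both clones. STAG1 (32 of 43, 74.4% against 87.7%) and STAG2 (30 of 42, 71.4% against 85.4%) also overlapped CTCF less often here, by -13.3 points (-28 to -2.66) and -14 points (-29 to -2.62). For PDS5A, 26 of 34 peaks lay on CTCF (76.5%), against 74.9%, a difference within counting error (-14.9 to 12.7 points). After dTAGV-1 the overlap in clone A2 was 39 of 40 at 4 h (97.5%, list 97.9%) and 41 of 52 at 24 h (78.8%, list 90.7%). Clone D7 had 38 of 56 on CTCF at 4 h (67.9%, list 78.2%) and 41 of 50 at 24 h (82%, list 90.7%). Among peaks with a −log10 q of at least 10, 43 of 50 in clone A2 (86%) and 40 of 54 in clone D7 (74.1%) overlapped CTCF, against 96.3% and 92% of the lists at that threshold. The differences from the rest of the list were then -10.3 points (-22.5 to -3.27) and -17.9 points (-30.9 to -8.11). Where RAD21, STAG1, STAG2 or PDS5A lay on CTCF, the summits sat close together, at a median distance of between 20 and 35 bp.

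At the MYC promoter, taken as 2.5 kb on either side of the gene's start, wild-type cells had 3 CTCF peaks. Their summits lay at -1333 bp before the start and at 832 and 2403 bp inside the gene, with folds of 67.5, 22.2 and 28.5. In DMSO, RAD21 formed 1 broad peak over the 3 CTCF summits in each clone. It spanned 5935 bp (127733722 to 127739656, fold 57.4) in clone A2 and 7079 bp (127732987 to 127740065, fold 69.7) in clone D7. This was the widest of all 37566 peaks in the clone D7 list and the 3rd widest of 39713 in the clone A2 list, where the widest measured 7549 bp. Both summits sat at the CTCF peak before the gene, at -1299 and -1305 bp.

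After dTAGV-1 the same interval held 2 or 3 separate, narrower RAD21 peaks. In clone A2 there were 3 peaks at 4 h (748, 430 and 756 bp, together 1934 bp) with folds of 29.3, 4.4 and 3.93. At 24 h there were 2, of 890 and 2046 bp (together 2936 bp), with folds of 57.7 and 3.83. So the cover in clone A2 was below the 5935 bp of DMSO at both times. In clone D7 there were 2 peaks at 4 h, of 1648 and 3339 bp (together 4987 bp), with folds of 85.1 and 9.79. At 24 h there were 3, of 827, 399 and 1491 bp (together 2717 bp), with folds of 42, 4.58 and 8.01. Here too both treated lists covered less than the 7079 bp of DMSO, with the smaller cover at 24 h. All 3 CTCF summits stayed covered by a RAD21 peak in each of the 6 lists. The peak before the gene was the strongest of the promoter each time, between the 81.6 and 97 percentile of its own list by fold.

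**Figure D2:**
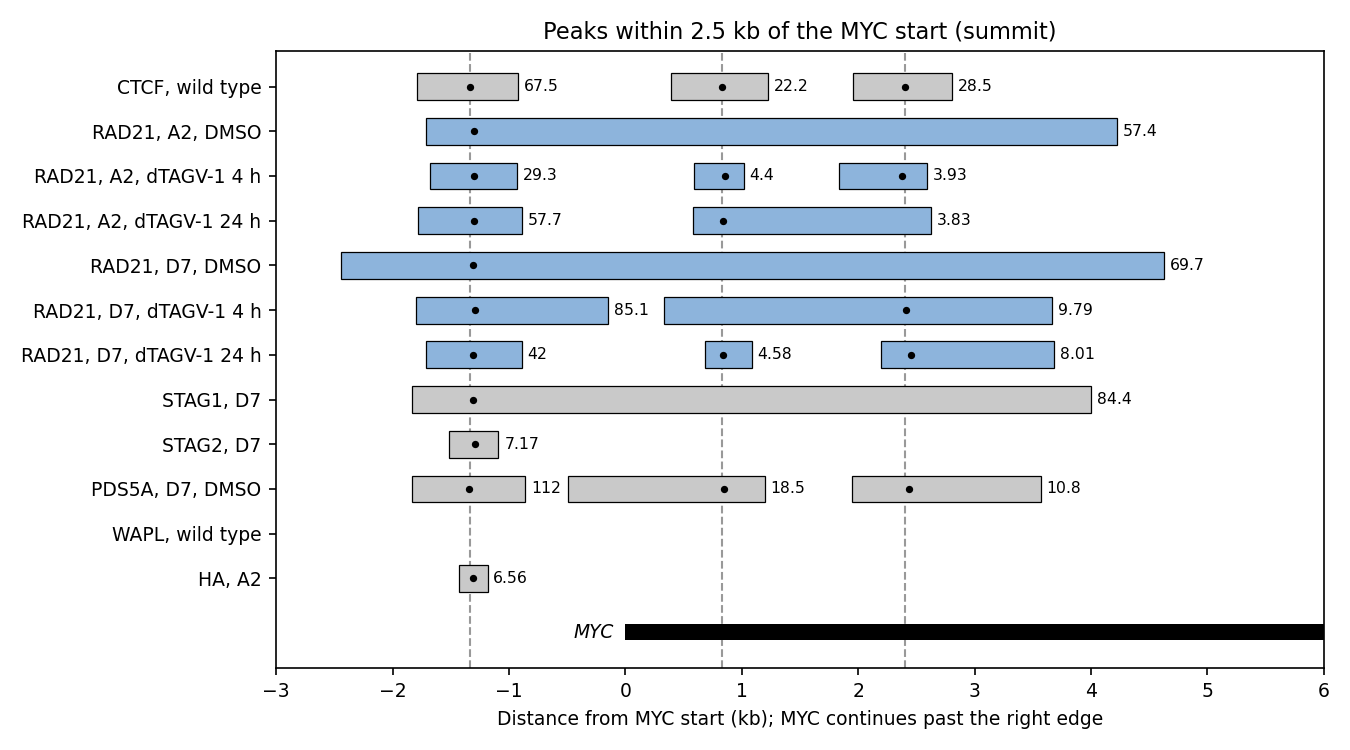
Boxes are peaks with a summit within 2.5 kb of the start of MYC, drawn by distance from it in kb (x axis) for each list (y axis). Dots mark summits, numbers give fold enrichment, dashed lines mark the 3 CTCF summits, and RAD21 is in blue. RAD21 forms 1 box in each DMSO list (5935 and 7079 bp) and 2 or 3 boxes after dTAGV-1, and STAG1 forms 1 box of 5838 bp.

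Narrower calls after dTAGV-1 were not limited to MYC. With a threshold of 5.0 kb, set after the MYC values were seen, 12 RAD21 peaks in DMSO in clone A2 (0.0302%) and 11 in clone D7 (0.0293%) were that wide, and 0 were in any of the 4 treated lists. The widest treated peaks of clone A2 measured 2691 bp (4 h) and 4308 bp (24 h), and those of clone D7 measured 4913 and 4372 bp. Splitting into 2 or more treated peaks was seen at 3 of the 12 (25%) at 4 h and 7 of the 12 (58.3%) at 24 h in clone A2, and at 8 of 11 (72.7%) and 4 of 11 (36.4%) in clone D7. MYC was among the split peaks each time. Peak width depends on depth and background as well as on binding. The DMSO libraries had the lowest background pileup of each clone, and their part in the width was not tested.

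The other proteins differed at the promoter. STAG1, 1 of the alternative subunits of the cohesin complex, formed 1 peak of 5838 bp with a fold of 84.4, the widest of the 26879 in its list. STAG2, the other such subunit, had 1 peak of 426 bp with a fold of 7.17, and it covered only the CTCF summit before the gene. By fold the STAG1 peak stood at the 98.3 percentile of its list and the STAG2 peak at the 29.8 percentile (49.4 when ranked by −log10 q). The STAG2 library had the higher background pileup, 3.14 against 1.77. PDS5A had 3 peaks, 1 at each CTCF summit, with folds of 112 (98.7 percentile), 18.5 and 10.8. HA had a peak of 245 bp with its summit at -1305 bp and a fold of 6.56, and WAPL had none within this window.

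Close to MYC, a site at -9.54 kb inside the non-coding gene CASC11 held CTCF with a fold of 46.9. RAD21 was there with folds of 16.5, 8.67 and 9.14 in clone A2 (DMSO, 4 h, 24 h) and 19.5 and 20.8 in clone D7 (DMSO, 4 h), and without a peak at 24 h in clone D7. STAG1 (16.5) and PDS5A (5.84) were present and STAG2 was not. Just past the end of MYC, at 7.86 kb, RAD21 was called in both DMSO lists alone, with folds of 5.33 and 5.02, and no other protein had a peak there.

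The start of PVT1, a promoter that lies 59.1 kb from that of MYC, had no CTCF peak. RAD21 was called there with 2 peaks in clone A2 in DMSO (folds 4.41 and 3.03) and 1 in clone D7 in DMSO (3.78), again in clone A2 at 24 h (4.78), and in no 4 h list. STAG1 (4.22) and PDS5A (3.68) were also present. These are weak peaks, the 4 RAD21 peaks at the 0.426 to 15.7 percentile of their lists.

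Within PVT1, CTCF and cohesin peaks were dense and did not reach the folds of the strongest desert sites. CTCF had 11 peaks, 35.9 per Mb against 21.9 per Mb before MYC and 19 per Mb after PVT1, and the highest fold was 16.2, against 94 in the desert. The median CTCF fold was 11.4 (43.1 percentile of the list by the median peak). It was 13.1 (46.1 percentile) in the desert after PVT1 and 20.6 (55.6 percentile) in that before MYC. RAD21 in DMSO had 12 peaks in clone A2 (39.1 per Mb) and 13 in clone D7 (42.4 per Mb), with maximum folds of 14.9 and 13.9. The median folds were 5.66 and 5.7, against 11.5 and 8.06 after PVT1 and 11.5 and 9.2 before MYC. All 12 peaks of clone A2 overlapped a DMSO peak of clone D7 (100%, 75.8 to 100%, list 80.5%), with the list's share inside the interval. The majority lay away from CTCF, 7 of 12 and 8 of 13, whereas 85.9% and 83.1% of the whole lists lay on CTCF. Of the 11 CTCF sites, 6 had no RAD21 in any list, against 32.1% of the CTCF list counted as peaks. CTCF and RAD21 thus shared 5 sites inside PVT1.

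PVT1 had fewer RAD21 calls after dTAGV-1 in both clones. Of the 12 clone A2 peaks, 1 was overlapped by a peak at 4 h (8.33%, 1.49 to 35.4%, list 62.2%) and 6 at 24 h (50%, 25.4 to 74.6%, list 64%). Of the 13 clone D7 peaks, 7 were overlapped at 4 h (53.8%, 29.1 to 76.8%, list 80%) and 5 at 24 h (38.5%, 17.7 to 64.5%, list 68.8%). The share of the whole list lay above the PVT1 interval except in clone A2 at 24 h, where it lay within it. Off CTCF, where most PVT1 peaks lay, clone A2 kept 0 of 7 at 4 h (list off CTCF 5.19%) and 2 of 7 at 24 h (28.6%, list 21.4%). Those 2 rest on weak calls. At the start of PVT1 the DMSO peak stood at the 0.426 percentile of its list. At 119 kb the 24 h peak stood at the 0.07 percentile, with a −log10 q of 2.16. Clone D7 kept 4 of 8 at 4 h (50%, list 50.3%) and 1 of 8 at 24 h (12.5%, list 25.8%). Each off-CTCF list share lay within the PVT1 interval. On CTCF, clone A2 kept 1 of its 5 PVT1 peaks at 4 h (20%, 3.62 to 62.4%, list on CTCF 71.5%) and 4 at 24 h (80%, list 71%). Clone D7 kept 3 of 5 at 4 h (60%, list 86.1%) and 4 of 5 at 24 h (80%, list 77.5%). Over all PVT1 peaks, the fewest were retained at 4 h in clone A2 and at 24 h in clone D7, though the intervals of the clones overlapped at each time. In the order DMSO, 4 h, 24 h, clone A2 had 12, 1 and 7 RAD21 peaks with a summit in PVT1, and clone D7 had 13, 9 and 5. Scaled to equal background pileup, they were 12, 1 and 6 and 13, 5 and 5. With a −log10 q of at least 10, they were 6, 1 and 5 and 12, 2 and 2. The order of times in clone A2 held under both settings, whereas in clone D7 the 4 h and 24 h counts became equal.

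**Figure D3:**
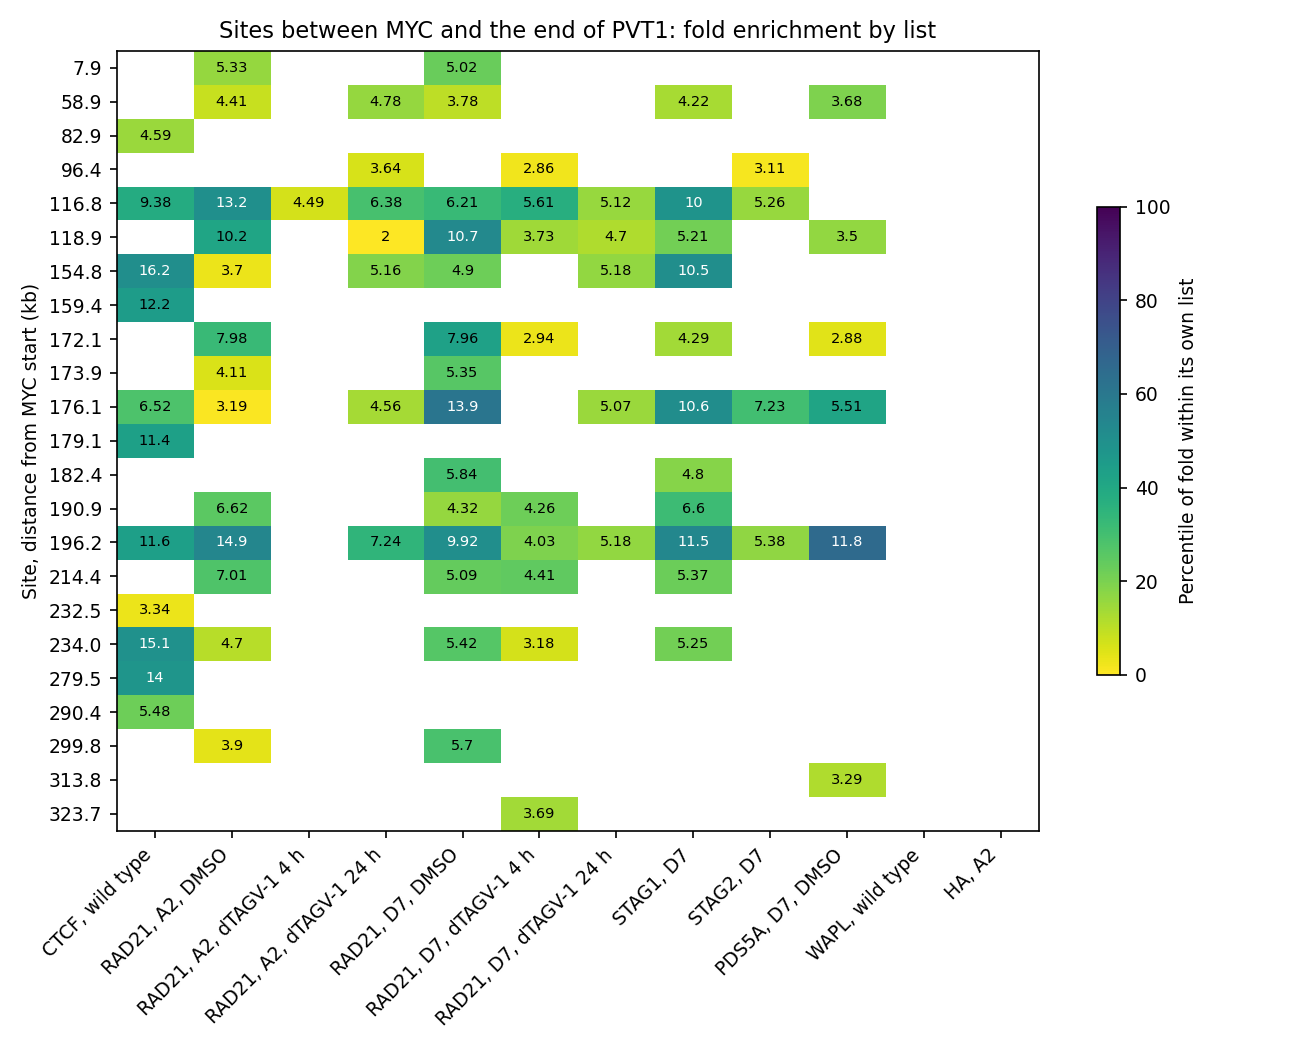
Rows are sites between the end of MYC and the end of PVT1, by distance from the start of MYC in kb, and columns are the 12 lists. Numbers are the fold of the strongest peak, colour is its percentile within its own list, and white means no peak. The column for clone A2 at 4 h has 1 filled cell, near the top at the site 117 kb from MYC, and the WAPL and HA columns are empty.

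Single PVT1 sites show this in detail. The site at 117 kb was the 1 site in PVT1 with RAD21 in all 6 lists. Its CTCF fold was 9.38 and its RAD21 folds were 13.2, 4.49 and 6.38 (clone A2) and 6.21, 5.61 and 5.12 (clone D7). STAG1 had a fold of 10 and STAG2 of 5.26. At the next site, 119 kb from MYC, RAD21 had no CTCF beneath it: its folds were 10.2 and 10.7 in the DMSO lists, with no peak at 4 h in clone A2 and folds of 2, 3.73 and 4.7 in the other 3 treated lists. The fold of 2, at 24 h in clone A2, stood at the 0.07 percentile of its list. STAG1 (5.21) and PDS5A (3.5) were present at 119 kb. The site at 196 kb had the highest RAD21 fold of PVT1 in clone A2 in DMSO (14.9) and held CTCF (11.6), STAG1 (11.5), STAG2 (5.38) and PDS5A (11.8). It was called at 24 h in clone A2 (7.24) and at both times in clone D7 (4.03 and 5.18), but not at 4 h in clone A2.

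At 2 CTCF sites the pattern was shared between the clones. The sites at 155 kb (CTCF 16.2) and 176 kb (CTCF 6.52) had RAD21 in both DMSO lists and in both 24 h lists, and in neither 4 h list. At 155 kb the RAD21 folds were 3.7 and 4.9 in DMSO and 5.16 and 5.18 at 24 h. At 176 kb they were 3.19 and 13.9 in DMSO and 4.56 and 5.07 at 24 h. STAG1 was present at 155 kb (10.5) and 176 kb (10.6), and STAG2 (7.23) and PDS5A (5.51) at 176 kb alone. The clone A2 DMSO calls were weak, at the 2.92 (155 kb) and 0.614 (176 kb) percentile of their list. Their −log10 q was 7.06 and 3.98, so neither passes the threshold of 10. The share of this pattern over the whole lists was not computed.

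A second group of sites was called in both DMSO lists and, among treated lists, at 4 h in clone D7 alone: 172 kb, 191 kb and 214 kb without CTCF, and 234 kb with CTCF (15.1). Their DMSO folds ran from 4.32 to 7.98 and their clone D7 4 h folds from 2.94 to 4.41. STAG1 was present at each of these sites (4.29 to 6.6) and PDS5A at 172 kb (2.88), without STAG2. These 4 h calls had a −log10 q between 3.38 and 9.59, all under 10, in the RAD21 list with the highest background pileup (4.05). The share of this pattern over the whole lists was not computed. The sites at 174 and 300 kb had RAD21 in both DMSO lists (folds 4.11 and 5.35, and 3.9 and 5.7) and in no treated list, without CTCF. RAD21 at 182 kb was limited to clone D7 in DMSO (5.84), beside STAG1 (4.8), and at 324 kb to clone D7 at 4 h (3.69). At 96.4 kb RAD21 was called in treated lists only, at 24 h in clone A2 (3.64) and at 4 h in clone D7 (2.86). STAG2 (3.11) was present at 96.4 kb. The sites at 82.9, 159, 179, 232, 279 and 290 kb held CTCF alone, with folds from 3.34 to 14, and 314 kb held PDS5A alone (3.29).

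PVT1 had more STAG1 than STAG2 peaks, 10 against 4, from lists of 26879 and 22518 peaks. Among the 13 DMSO RAD21 peaks that clone D7 had here, 3 overlapped both, 8 overlapped STAG1 without STAG2 (61.5%), 0 overlapped STAG2 alone and 2 overlapped neither. Over the whole list, STAG1 without STAG2 was found at 25.8% of RAD21 peaks. Of the 8 PVT1 peaks with STAG1 and no STAG2, 6 lay off CTCF. Taken by class, that combination was at 6 of 8 off-CTCF RAD21 peaks in PVT1 (75%), against 30.1% of the off-CTCF list. On CTCF it was at 2 of 5 (40%), against 24.9%. No interval was computed for these shares. The desert before MYC had 10 STAG1 peaks and 17 STAG2 peaks, of which 12 overlapped clone D7 DMSO RAD21. Counted at the 21 RAD21 peaks there, the numbers were close, with STAG1 at 10 and STAG2 at 12. In the desert after PVT1 the peak numbers were close too, with 21 and 20. As the labels give no treatment for STAG1 and STAG2, they were set beside the DMSO list of the same clone.

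**Figure D4:**
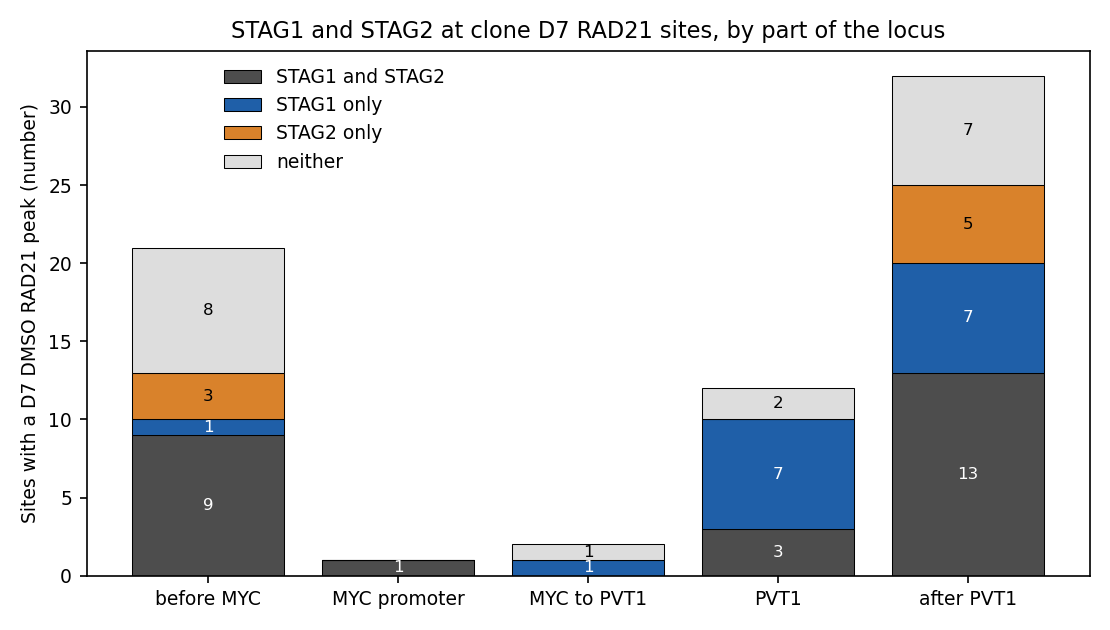
Bars count the merged sites with a clone D7 DMSO RAD21 peak in each zone (y axis, number of sites), split by the STAG peaks they hold. In PVT1, 7 of 12 sites hold STAG1 without STAG2 and 0 hold STAG2 alone; the site at the start of PVT1 is counted under MYC to PVT1.

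In the desert before MYC, which holds cancer-associated non-coding genes such as PCAT1, CCAT1, CASC8 and CCAT2, CTCF had 27 peaks and RAD21 had 23 and 21 in the DMSO lists of clones A2 and D7. The strongest sites lay at the far end. At -859 kb, inside the non-coding gene LOC105375751, the CTCF fold was 87.3 and the RAD21 folds were 91.9, 64.1 and 152 (clone A2) and 62.3, 180 and 156 (clone D7). STAG1 (76.8), STAG2 (31), PDS5A (56.9) and WAPL (11.1) were present at this site too. The site at -911 kb had the highest CTCF fold of this desert (88.8), and the site at -1036 kb held CTCF at 49.6 with RAD21 at 56.8 and 31.6 in DMSO. At -925 kb, CTCF (64.5), RAD21 in all 6 lists (28.3 to 42.8) and WAPL (4.96) were found without PDS5A. These 4 sites kept RAD21 at both times in both clones.

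Nearer to genes, the site at -1179 kb, at an end of LRATD2, held CTCF with a fold of 68.3, RAD21 in all 6 lists (8.5 to 33), STAG1 (11.7) and PDS5A (12), and a weak STAG2 peak (3.08). A site at -335 kb inside CASC8 and CCAT2, chosen after its values were seen, paired a strong CTCF peak (67.9) with weaker RAD21 (3.35 to 14.6 over the 6 lists) and no STAG1, STAG2 or PDS5A peak. POU5F1B, a MYC neighbour derived from the gene of a stem cell factor, contained no CTCF peak and no DMSO RAD21 peak.

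After PVT1, CTCF had 36 peaks and RAD21 had 32 in each DMSO list. At 1801 kb, inside the non-coding gene CCDC26, CTCF reached its highest fold of the locus (94). RAD21 folds there were 60.6, 53.4 and 135 (clone A2) and 79.4, 77.9 and 78 (clone D7), and STAG1 (98), STAG2 (58.3) and PDS5A (76.5) were present. The site at 1991 kb, inside the gasdermin gene GSDMC, held CTCF at 71.9 and RAD21 between 35.5 and 82.5, with the highest STAG2 fold of the locus (71.5). At 587 kb, the strongest cohesin site between PVT1 and CCDC26 in clone D7 in DMSO, CTCF was at 48.1 and RAD21 at 46.7. These 3 sites held RAD21 in all 6 lists.

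A strong CTCF peak did not always come with strong cohesin. The site at 2085 kb had a CTCF fold of 73.9, but RAD21 folds of 8.59 and 8.78 in DMSO, 6.21 at 4 h in clone D7, and no peak in the other 3 treated lists. Its neighbour at 2091 kb, with a CTCF fold of 77.5, held RAD21 in all 6 lists, at 34.2 and 32.1 in DMSO and between 11.6 and 32.4 after dTAGV-1. The longest stretch of the locus with no CTCF summit, 331 kb, ran from 587 to 918 kb.

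WAPL and HA were found at few sites. WAPL peaks lay at -925, -859 and 1568 kb, each on CTCF (99.2% in the whole WAPL list) and on RAD21 in both DMSO lists (99.1% and 98.5%). HA peaks lay at -1.34, 441 and 1947 kb, each on CTCF (67% in the whole HA list) and on clone A2 DMSO RAD21 (95.7%). The HA site at 441 kb combined a weak CTCF peak (4.88) with RAD21 at 13.1 and 8.06 in DMSO and STAG1 at 13. The one at 1947 kb had CTCF at 51 and RAD21 at 48.7 and 43.5. With a −log10 q of at least 10, 0 HA peaks and 1 WAPL peak were left, the one at -859 kb. The other WAPL peaks ranked at the 7.5 and 4.46 percentile of their list by fold. The HA peaks ranked at the 46.5, 22.2 and 41.3 percentile of theirs.

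Most PDS5A peaks at the locus overlapped STAG1 and RAD21. Of its 34 peaks, 30 overlapped STAG1 (88.2%, against 65.6% of the list) and 30 overlapped clone D7 DMSO RAD21 (88.2%, against 72.7%). The differences from the rest of the list had intervals of 7.8 to 29.8 points (STAG1) and 0.667 to 22.6 points (RAD21). In each case 3 of the 30 were the MYC promoter peaks, which overlapped the same broad peak. With summits within 200 bp the RAD21 share was 70.6%, and the list's share under that rule was not computed. STAG2 was at 18 of the 34 (52.9%, list 40.4%). Of the clone D7 DMSO RAD21 peaks, 42 of 68 held STAG1 (61.8%, list 66.9%) and 34 of 68 held STAG2 (50%, list 50%). PDS5A was at 27 of 68 (39.7%, 28.9 to 51.6%), against 55.8% of the list. STAG1 peaks overlapped RAD21 in 42 of 43 cases (97.7%, list 93.6%) and STAG2 peaks in 34 of 42 (81%, list 84%). STAG1 and STAG2 shared 26 peaks, 60.5% of STAG1 and 61.9% of STAG2 peaks, against 58% and 69.6% of the lists.

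The question that the time course addresses is which cohesin sites remain when NIPBL is degraded. A DMSO peak was counted as retained when a peak of the treated list overlapped it by at least 1 bp. In clone A2, 35 of 70 locus peaks were retained at 4 h (50%, 38.6 to 61.4%), against 62.2% of the list, and 42 of 70 at 24 h (60%, 48.3 to 70.7%), against 64%. In clone D7, 45 of 68 were retained at 4 h (66.2%, 54.3 to 76.3%), against 80%, and 41 of 68 at 24 h (60.3%, 48.4 to 71.1%), against 68.8%. At 4 h, clone A2 differed from the rest of its list by -12.2 points (-23.6 to -0.791) and clone D7 by -13.9 points (-25.7 to -3.77), both outside counting error. The 24 h differences, -4.02 (-15.7 to 6.65) and -8.47 (-20.4 to 2.32), were within it. The clones overlapped in DMSO as well as elsewhere, with 84.3% of clone A2 locus peaks in clone D7 (list 80.5%) and 83.8% in the other direction (list 84.4%).

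Retention followed CTCF. On CTCF, 34 of 46 clone A2 peaks were retained at 4 h (73.9%, list 71.5%) and 38 of 46 at 24 h (82.6%, list 71%), and 35 of 43 clone D7 peaks at each time (81.4%, lists 86.1% and 77.5%). Off CTCF, 1 of 24 clone A2 peaks was retained at 4 h (4.17%, list 5.19%) and 4 at 24 h (16.7%, list 21.4%). In clone D7, 10 of 25 were retained at 4 h (40%, list 50.3%) and 6 at 24 h (24%, list 25.8%). In each of these 8 cases the list's share lay within the interval of the locus. When the list's retention rates on and off CTCF were applied to the locus's own mix of sites, the resulting retention came to 48.8% (4 h) and 54% (24 h) for clone A2, beside 50% and 60% observed. For clone D7 it came to 72.9% and 58.5%, beside 66.2% and 60.3% observed. Of the peaks present at 4 h, 36 of 40 were also in the 24 h list in clone A2 (90%, list 83.7%) and 36 of 56 in clone D7 (64.3%, list 65.2%). Retained peaks were also the stronger ones in DMSO, with a median fold of 19.8 against 5.36 for those lost at 4 h in clone A2, and 10.3 against 4.9 in clone D7. Peak strength and CTCF were not separated, and the part of either in retention was not tested. Lists cut to equal length by fold retained 82.1% at 4 h in clone A2 and 73.8% in clone D7, sets that leave out most weak DMSO peaks. With a −log10 q of at least 10, the 4 h values were 64% and 64.8%. The lower 4 h retention of clone A2 in the full lists was therefore not seen under these 2 settings.

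**Figure D5:**
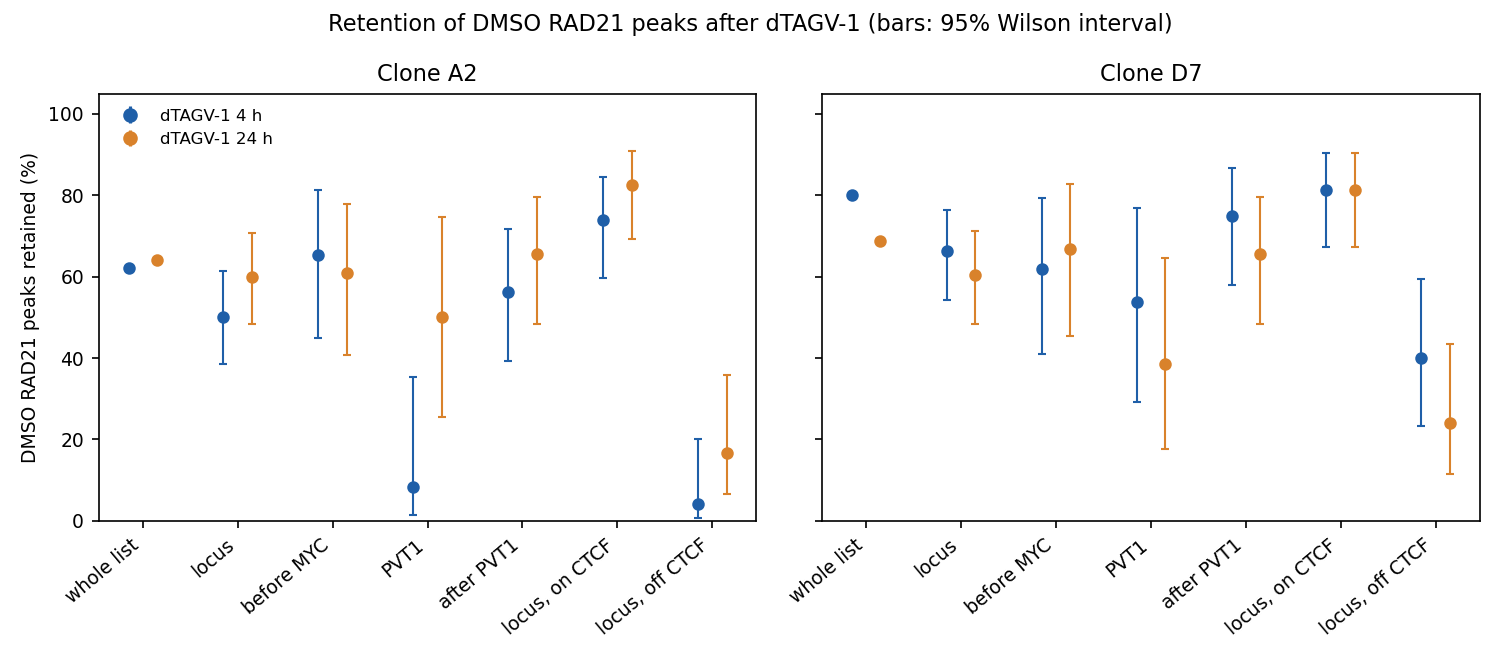
Points give the percentage of DMSO RAD21 peaks (y axis) overlapped by a peak after 4 h (blue) or 24 h (orange) of dTAGV-1, for clone A2 (left) and clone D7 (right), and bars are 95% Wilson intervals. Peaks on CTCF sit between 73.9 and 82.6% and those off CTCF between 4.17 and 40%, and PVT1 in clone A2 at 4 h is at 8.33%.

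By zone, clone A2 retained 65.2% (4 h) and 60.9% (24 h) of its peaks in the desert before MYC, and 56.2% and 65.6% of those after PVT1, beside 62.2% and 64% of its list. Clone D7 retained 61.9% and 66.7% before MYC and 75% and 65.6% after PVT1, beside 80% and 68.8% of its list. The list's share lay within the interval of the desert zones, except before MYC in clone D7 at 4 h (40.9 to 79.2%). The intervals of the desert zones and of PVT1 overlapped, except in clone A2 at 4 h, where PVT1 (1.49 to 35.4%) lay below both the desert before MYC (44.9 to 81.2%) and that after PVT1 (39.3 to 71.8%).

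RAD21 was called in both DMSO lists and in none of the 4 treated lists at 8 sites, and 1 of the 8 held CTCF. Counted in clone D7, they made up 8 of 68 DMSO peaks (11.8%), against 5.35% of the list. These shares were not split by CTCF, and 63.2% of clone D7 DMSO peaks at the locus lay on CTCF against 83.1% of the list. No excess at the locus is read from them. The 8 sites lay at -519, -441, 7.86, 174, 300, 448, 589 and 1124 kb. The site with CTCF was the one at 1124 kb (CTCF 14.3, RAD21 6.3 and 5.75). The highest RAD21 folds of the group were 7.3 and 8.26 at 448 kb, where STAG2 (6.04) was present without STAG1. At -519 kb, inside CCAT1, the folds were 6.97 and 4.25, and at -441 kb 4.08 and 4.75 with STAG2 (5.07). At the other extreme, 25 of 68 clone D7 peaks (36.8%) were in all 6 RAD21 lists, against 50.4% of the list, again not split by CTCF.

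RAD21 peaks absent from the DMSO list of the same clone made up 3 of 40 (7.5%, list 3.64%) at 4 h and 9 of 52 (17.3%, list 10.8%) at 24 h in clone A2. In clone D7 they made up 9 of 56 (16.1%, list 22.7%) and 6 of 50 (12%, list 13.5%). At 2 sites RAD21 was present in both clones at 24 h and in neither DMSO list, 2 of 52 clone A2 peaks (3.85%, list 1.66%), and 0 such sites were seen at 4 h. They lay at -1011 kb (folds 6.27 and 4.67) and -801 kb (7.32 and 6.64), both inside LOC105375751, without CTCF or any other protein.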

How the data were processed

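The analysis started from narrowPeak lists, 1 per immunoprecipitation, that the authors deposited. The submitters' processing notes name BWA, Picard, SAMtools, bedtools, deepTools and MACS2 and the builds hg38 and mm10, without version or role. Each deposited list gives a score (10 times the −log10 q, cut to a whole number, in all but 5 peaks of 1 list), the fold enrichment ratio at the summit, and the −log10 p and −log10 q of the peak, as the authors made them. Peak names in the deposited files carry a q of 0.001 for CTCF and 0.01 for the others. Per the labels' protocols, CTCF libraries were made differently from the rest.

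Peaks were assigned by summit, and overlap meant at least 1 bp. Sites were merged overlapping peaks. Genes came from the RefSeq table of GRCh38.p14, which holds no strand or exons, so exon, intron and motif positions were not analysed here. The start of MYC was its lower coordinate. Background pileup was recovered from fold and p under a Poisson model for peaks with a −log10 p under 250. Recovered pileups were whole, within 0.1, at 100% of peaks in 11 lists, the exception being HA. Spike-in reads were not used here. Lists differ in depth and length, so shares are given beside the share of the whole list.

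Named sites were those within 5 kb of the start of MYC, all in PVT1, the 3 highest by CTCF and by clone D7 DMSO RAD21 in each desert, all with WAPL or HA, those shared by both clones in DMSO alone or in dTAGV-1 alone, and those within 2.5 kb of another protein-coding gene's end. The site in CASC11, the start of PVT1 and the one at -335 kb were added after their values were seen. Members and lists were chosen with earlier results of these data known. Alternatives were a −log10 q of at least 10, summits within 200 bp, equal background pileup, equal list length (25763 peaks), a window from 127.0 to 129.5 Mb and a promoter of 5 kb. Overlap, interval and pileup functions were tested on simulated data. Python 3.11.15, numpy 2.4.6, scipy 1.17.1 and matplotlib 3.10.9 were used.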

Additional observations from a re-analysis of the deposited data

How the results depend on the processing

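Each clone had 1 library per time, so a difference between times can be compared with the other clone alone, and a difference between clones has no replicate. A lost call can reflect depth as well as binding. Of 88 recomputed values, 72 stayed within the counting error of the main value (or within 1.5 times a count) and 16 did not. Equal background pileup moved 0 of its 10 values, which were counts and retention over the whole locus. Counts within PVT1 were not among the 88. There the clone D7 count at 4 h went from 9 to 5 and the clone A2 count at 24 h from 7 to 6, with the other RAD21 counts unchanged. With a −log10 q of at least 10, retention in clone A2 at 4 h was 64%. CTCF overlap under that threshold was 86%, 100% and 90.7% for RAD21 in clone A2 (DMSO, 4 h, 24 h), 74.1% and 87.8% in clone D7 (DMSO, 4 h) and 100% for PDS5A. Under it 1 WAPL peak and 0 HA peaks were left, and 100% of PDS5A peaks overlapped RAD21. Lists of equal length gave retention of 82.1% and 87.2% in clone A2 (4 h, 24 h) and 73.8% and 71.4% in clone D7. By construction they hold fewer and stronger peaks, except the clone A2 4 h list, which set the length. The narrower window gave a CTCF overlap of 52.1% for clone A2 in DMSO, and the cause was not tested. Summits within 200 bp gave 70.6% for PDS5A peaks at RAD21, and ranking by −log10 q put the STAG2 peak at the MYC promoter at the 49.4 percentile. The STAG1, STAG2, PDS5A, WAPL and HA overlap alternatives and the ranking by −log10 q were chosen after seeing the data. The labels give no replicate numbers. DMSO and dTAGV-1 lists were compared within each clone, and no test with clone as a block was run.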

Other observations

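Apart from the sites named above, the desert after PVT1 held other cohesin sites, some of which are described here. At 374 kb, RAD21 without CTCF was called in 5 of 6 lists, with folds of 8.63 and 4.58 in clone A2 (DMSO, 24 h) and 7.12, 8.22 and 4.76 in clone D7, beside STAG1 (11.1), STAG2 (5.33) and PDS5A (2.75). At 432 kb, RAD21 was called in all 3 clone D7 lists (5.58, 6.13 and 3.51) and at 24 h in clone A2 (5.04), and CTCF was again without a peak. The site at 462 kb held RAD21 in all 6 lists with folds between 5.54 and 6.8 on a weak CTCF peak (6.11), without STAG1, STAG2 or PDS5A. The site at 1197 kb had RAD21 folds of 33.5 to 69 in its 6 lists on a CTCF peak with a fold of 23.9. These sites were chosen after their values were seen.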
